A study of Homo sapiens with 6 samples.

Results

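The PI3K, AKT and mTOR pathway was followed through 45 genes chosen by symbol, from the insulin receptor substrates and phosphoinositide 3-kinase down to the mTOR complexes, their nutrient and stress inputs and their translation targets. All 45 were found among the 45372 gene IDs in the deposited tables, and 42 passed the filter on low values, which asked for 1 TPM or more in 3 or more of the 6 libraries. The cells were human umbilical vein endothelial cells (HUVECs), primary cells from the vein of the umbilical cord, passaged in endothelial growth medium and given as WT in the labels. One group of 3 libraries came from cells transfected with a non-specific control RNA and the other group of 3 from cells transfected with a synthetic miR-409-3p mimic, each at 50 nM with the same lipid reagent and harvested at 48 h. Both groups therefore share the transfection, the titles of all 6 libraries also call the cells non-treated, and the labels do not say what that refers to. The labels number biological replicates 1 to 3 in each group without naming donors, and 4 technical replicates were pooled behind each RNA sample, so the p-values measure the spread between these pools.

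Growth factor receptors recruit class I phosphoinositide 3-kinase, a dimer of a catalytic and a regulatory subunit, which makes the membrane lipid that brings PDK1 and AKT together. AKT inhibits the TSC complex, which otherwise keeps the small GTPase RHEB inactive, and RHEB activates mTOR complex 1 on lysosomes where the Rag GTPases hold it when amino acids are present. In endothelial cells this pathway is known for its part in survival, nitric oxide synthase activation and vessel growth, and much of its control is by phosphorylation, which RNA sequencing does not measure.

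The deposited values are TPM, a measure of transcript abundance per unit of gene length that sums to one fixed total per library. The depth, read from the steps between low values, was 29.8 M to 35.8 M assigned reads per library (M, 10 to the power of 6). Endothelial markers were abundant in every library. The 10 markers summed to 4390 to 4675 TPM in control and 4679 to 4721 TPM in mimic libraries, and PECAM1 was the highest. The lowest mimic sum lay just above the highest control sum, and 0 of 10 had an unadjusted p under 0.05, beside 10.7% of all tested genes. The 5 smooth muscle markers summed to 9.60 to 13.3 TPM in control and 10.4 to 12.0 TPM in mimic libraries, the 5 fibroblast markers to 9.27 to 11.8 and 10.4 to 11.3 TPM, the 5 leukocyte markers to 16.9 to 19.8 and 16.8 to 19.1 TPM, and the 5 epithelial markers to 1.85 to 2.71 and 1.58 to 2.75 TPM. Most of the leukocyte sum was CD68, while PTPRC and CD3E were listed at 0 in every library, as were KRT5, KRT14 and all 5 blood markers.

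The microRNA supplied is shown first, because its seed (bases 2 to 8, in capitals) decides which pathway transcripts it could pair with. The mature sequence is from RefSeq on GRCh38.p14, at chr14:101065346-101065367 on the plus strand, and is followed by 30-base windows of 3′ UTR from GENCODE release 29 transcripts on GRCh38, with the seed match in capitals. The sites are those of the 7 tested members with the longest matches, RICTOR and PRKAA2 with all 8 letters and the other 5 with the 7 that pair with the whole seed, and EIF4E has a second of this kind that is not printed.
hsa-miR-409-3p: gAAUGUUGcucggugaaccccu
AKT1, chr14:104769422-104769451, minus strand: gcaccacggcgtttttttaCAACATTcaac
RICTOR, chr5:38940875-38940904, minus strand: gttttgacacagtcatagCAACATTAatat
PRKAA2, chr1:56710720-56710749, plus strand: tgtattattatttgagtgCAACATTAttct
IRS2, chr13:109753659-109753688, minus strand: aaaaatacctgccagataaCAACATTtatg
PIK3R1, chr5:68300103-68300132, plus strand: tttgtgaatctttgtgcttCAACATTcttt
RPS6KB1, chr17:59949767-59949796, plus strand: gtatgatactccataaattCAACATTcttt
EIF4E, chr4:98873463-98873492, minus strand: ctgctttattttgtgacttCAACATTtgac

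The motifs searched on the transcript strand were CAACATTA (8mer), CAACATT (7mer-m8), AACATTA (7mer-A1) and AACATT (6mer, contained in the other 3), and each gene was put in its strongest class. Of the 42 tested members, 12 held a 7mer or 8mer match in the longest annotated 3′ UTR, 28.6%, against 2705 of 11855 tested protein-coding genes, 22.8%. The classes held 2 members with an 8mer, 5 with a 7mer-m8, 5 with a 7mer-A1, 8 with a 6mer and 22 with none. The AKT1 match lay in 7 of the 8 annotated coding transcripts, and the PIK3R1 and EIF4E matches each in 1 of 5. A match is a description of the sequence, and whether the site is used was not tested.

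None of the 12 tested members with a 7mer or 8mer match passed the test described below, beside 0.431% of all tested genes that did. The median difference of the 12 members with a 7mer or 8mer was 0.0064 on the log2(TPM + 1) scale, mimic minus control, with 7 above and 5 below 0. The median of all 2705 genes with such a match was -0.016, and that of the 6477 searched genes with none of the motifs was -0.021. AKT1 measured 67.5, 74.5 and 68.3 TPM in control and 69.5, 65.4 and 78.4 TPM in mimic libraries, and the groups overlapped. Its difference was 0.02 with a standard error of 0.08 and a 95% interval of -0.16 to 0.19, which leaves out a fall of more than 0.16. RICTOR, with 1 match of each of the 8mer, 7mer-m8 and 7mer-A1 kinds, was at 23.0, 24.9 and 26.2 TPM in control and 24.8, 28.5 and 23.5 TPM in mimic libraries, again overlapping. In whole-culture RNA, fewer cells expressing a gene and less of its RNA per cell cannot be told apart, here and in all the values that follow.

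**Figure D1:**
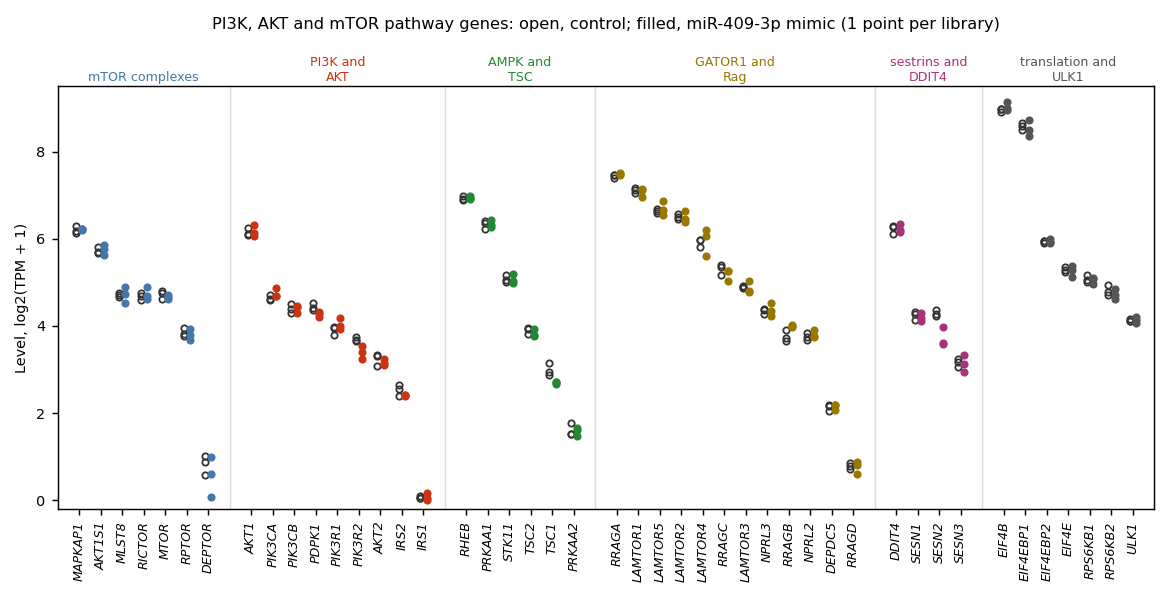
Level of each of the 45 pathway genes in each library, as log2(TPM + 1) on the vertical axis, grouped by arm of the pathway and ordered by mean level within it (open points, control; filled points, mimic). Levels span from IRS1 near 0 to EIF4B at 483 to 562 TPM, and the open and filled points of most genes overlap.

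Levels differed far more between the pathway genes than between the groups. TPM is per unit of gene length, which for most low genes matched the merged length of all annotated exons. That length can exceed the longest transcript, at 15035 against 5300 nt for AKT2 and 1073 against 1020 nt for EIF4EBP1. Levels, shares and ratios set side by side between genes are therefore approximate. The highest mean level was that of EIF4B, an initiation factor that assists the helicase EIF4A1, with a control mean of 496 ± 11.5 and a mimic mean of 525 ± 32.8 TPM (SD, n = 3 per group). The next was EIF4EBP1, the repressor that mTOR complex 1 releases from EIF4E, with means of 382 ± 21.9 and 372 ± 49.7 TPM. At the other end, IRS1, an adaptor of the insulin and IGF receptors, was at 0.0364, 0.0370 and 0.0696 TPM in control and 0.111, 0 and 0.0399 TPM in mimic libraries, which is 0 to 9 estimated reads per library, and did not pass the filter. The lysosomal GTPase RRAGD, at 23 to 34 estimated reads, and DEPTOR, an inhibitory subunit of both mTOR complexes, at 1 to 22 estimated reads, did not pass either.

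One paralog dominated in some pairs. PRKAA1, a catalytic subunit of the energy sensor AMPK, made up 97.2% to 97.7% of the sum of PRKAA1 and PRKAA2 across the 6 libraries. RRAGC made up 97.7% to 98.6% of RRAGC plus RRAGD. The groups overlapped on both of these shares.

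Whether the mimic changed the pathway was asked with limma on log2(TPM + 1), with Benjamini-Hochberg adjustment over 13680 tested genes and a threshold of 0.05. Of the 42 tested members 0 passed as higher and 0 as lower. Of all tested genes 0.431% passed (0.132% as higher, 0.3% as lower in mimic cells). On simulated data, limma recovered 64.8% of 1.5-fold changes and 17.5% of the smallest changes simulated. A member that did not pass is therefore not shown to be unchanged. At an unadjusted p under 0.05, 1 member was higher, against 3.05% of all tested genes, and 4 were lower, against 7.64%. Together these were 11.9% of the members, beside 10.7% of all tested genes, so the share of members was near the background. The same 5 were the members whose groups did not overlap, 11.9% against 15.7% of all tested genes (5.16% higher and 10.5% lower). The median difference of the members was -0.0067 and that of all tested genes -0.017.

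**Figure D2:**
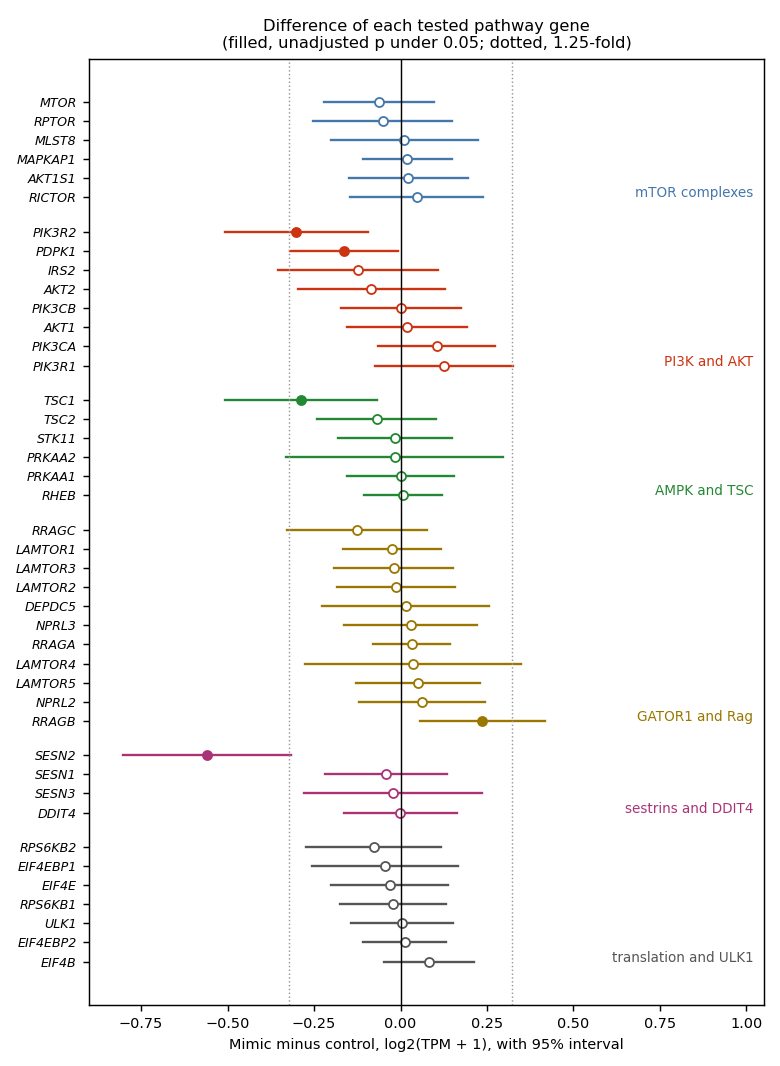
Difference between mimic and control cells for each of the 42 tested members, in log2(TPM + 1) with its 95% interval (not adjusted over genes), by arm. Filled points mark the 5 members with an unadjusted p under 0.05, from SESN2 at -0.56 to RRAGB at 0.24, and dotted lines mark 0.32 on either side of 0.

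For most members the data set a narrow limit on the difference. The 95% interval lay within 0.32 of 0 in either direction on the log2(TPM + 1) scale for 33 of 42 members, 78.6%, beside 60.8% of all tested genes, and within 1.5-fold for 41 of 42. The 9 whose interval reached past 0.32 were SESN2, PIK3R2, TSC1, RRAGB, IRS2, PIK3R1, PRKAA2, RRAGC and LAMTOR4. On this scale SESN2 was the 1 past 1.5-fold, and the scale understates changes of low genes such as TSC1, at a control mean of 6.93 TPM. Within a group, the coefficient of variation of a member had a median of 5.79% in control and 7.18% in mimic libraries, close to the 6.40% and 7.54% of all tested genes.

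The sestrins and DDIT4 are the stress inputs of the pathway, and this arm held the member with the largest difference. SESN2, which encodes a leucine-binding protein that restrains mTOR complex 1 through the GATOR complexes and is a known target of p53 and ATF4, measured 17.6, 19.5 and 18.3 TPM in control and 11.1, 11.1 and 14.6 TPM in mimic libraries. All 3 mimic values were under the lowest control value, and mimic library 3 was the nearest to the controls. The mimic mean was 0.666 of the control mean, from an estimated 504 to 548 reads in control and 311 to 381 reads in mimic libraries. The difference of -0.56 (SE 0.11, 95% interval -0.80 to -0.32) had a limma adjusted p of 0.0763 and did not pass. SESN2 passed in 5 of 18 alternatives, all by limma with Benjamini-Hochberg adjustment. It passed with a filter of 5 TPM (adjusted p = 0.0338), a robust prior (0.0390) and without mimic library 3 (-0.68, 0.0110). It also passed with protein-coding genes only (0.0312) and after a correction for GC content and transcript length (-0.52, 0.0233, but 0.0884 with a replicate block as well). Among the settings where it did not pass were quantile scaling (limma adjusted p = 0.105), an untrended prior (0.123), a replicate block alone (0.161) and no filter (0.275). Over the 18 alternatives the adjusted p ranged from 0.0110 to 0.275.

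The 3 other genes of that arm showed no such separation. SESN1, a p53-induced sestrin, had a control mean of 18.0 ± 1.20 and a mimic mean of 17.4 ± 1.21 TPM (SD, n = 3). SESN3, a sestrin under FOXO control, was at 7.98, 7.25 and 8.38 TPM in control and 7.66, 9.05 and 6.64 TPM in mimic libraries, with the mimic libraries on both sides of the controls. As a share of the 3 sestrins, SESN2 was 41.7%, 42.6% and 40.6% in control and 31.5%, 28.6% and 38.1% in mimic libraries, a share chosen after its values were seen and given without a test. DDIT4, a stress- and glucocorticoid-induced activator of the TSC complex, was at 76.5, 67.9 and 78.1 TPM in control and 79.4, 70.7 and 72.2 TPM in mimic libraries. Its difference of -0.0002 had a 95% interval of -0.16 to 0.16, so a shift beyond that size lies outside the interval.

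**Figure D3:**
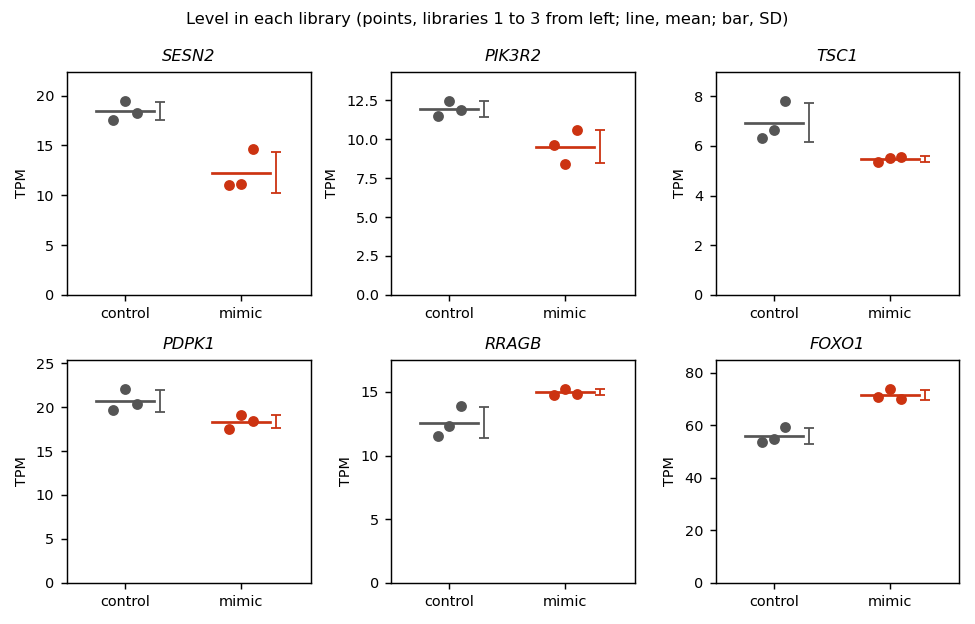
TPM in each library for the 5 members with an unadjusted p under 0.05 and for FOXO1 (points, libraries; line, mean; bar, SD; n = 3 per group; each axis starts at 0). In each panel the mimic libraries lie wholly on one side of the control libraries, and for SESN2 mimic library 3, at 14.6 TPM, lies nearest to the controls.

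In the PI3K and AKT arm the estimates of the regulatory subunit genes PIK3R1 and PIK3R2 differed in sign. PIK3R2, which encodes the p85-beta subunit, measured 11.5, 12.5 and 11.9 TPM in control and 9.62, 8.41 and 10.6 TPM in mimic libraries, a mimic mean 0.798 of the control mean (difference -0.30, SE 0.09, limma adjusted p = 0.243). PIK3R1, which encodes p85-alpha, was at 12.8, 14.5 and 14.8 TPM in control and 14.2, 17.0 and 15.1 TPM in mimic libraries, with overlap (0.13, SE 0.09, limma adjusted p = 0.720). The ratio of PIK3R1 to PIK3R2 was 1.12, 1.17 and 1.24 in control and 1.48, 2.02 and 1.42 in mimic libraries. The ratio was higher in every mimic library, was chosen after these values were seen and so has no test. PIK3R2 shares its strand with an annotated overlapping gene, and how reads there were assigned is not given.

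PDPK1, which encodes the kinase PDK1 that phosphorylates AKT, was lower by a smaller step. It measured 19.6, 22.1 and 20.4 TPM in control and 17.6, 19.1 and 18.4 TPM in mimic libraries (difference -0.16, SE 0.07, limma adjusted p = 0.431). The groups did not overlap, but the highest mimic library came close to the lowest control library. PDPK1 overlaps 3 annotated genes on its strand and 6 on the other and has a near-identical pseudogene, so its reads may be shared and its value is uncertain. PIK3CA, the p110-alpha catalytic subunit, was at 23.2, 23.6 and 25.2 TPM in control and 24.8, 28.5 and 24.6 TPM in mimic libraries, and it made up 41.0% to 45.4% of the 4 class I catalytic subunits. IRS2, the insulin receptor substrate that these cells do express, was at 4.25, 4.83 and 5.28 TPM in control and at 4.29, 4.28 and 4.32 TPM in mimic libraries. AKT2, the AKT form best known for insulin signalling, was at 7.48, 9.12 and 8.86 TPM in control and 7.81, 7.59 and 8.38 TPM in mimic libraries, and on each of these 3 genes the groups overlapped.

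Among the AMPK and TSC genes, TSC1 was the 1 of 6 with an unadjusted p under 0.05, beside 10.7% of all tested genes. TSC1, which encodes hamartin, the subunit that stabilises tuberin, measured 6.31, 6.66 and 7.81 TPM in control and 5.34, 5.51 and 5.57 TPM in mimic libraries (0.790 of the control mean, difference -0.29, SE 0.10, limma adjusted p = 0.307). Its partner TSC2, the GTPase-activating subunit, was at 13.1, 14.3 and 14.5 TPM in control and 12.9, 12.7 and 14.3 TPM in mimic libraries, with overlap. TSC1 shares part of its span with 2 annotated genes on the other strand. The ratio of TSC1 to TSC2 was 0.482, 0.465 and 0.538 in control and 0.414, 0.435 and 0.390 in mimic libraries, again a description chosen after the values were seen.

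For the target of that complex and the kinases upstream of it the groups overlapped. RHEB was at 118, 125 and 120 TPM in control and 125, 121 and 120 TPM in mimic libraries, with a 95% interval of -0.10 to 0.12. PRKAA1 was at 74.0, 81.3 and 84.1 TPM in control and 78.9, 84.8 and 75.8 TPM in mimic libraries, with an interval of -0.15 to 0.16. PRKAA2 was at 1.84, 1.87 and 2.41 TPM in control and 2.15, 2.07 and 1.78 TPM in mimic libraries. STK11, the LKB1 kinase that activates AMPK, was at 32.9 ± 1.91 and 32.5 ± 2.42 TPM (mean ± SD, n = 3).

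The GATOR1 and Rag genes sense amino acids at the lysosome, and RRAGB was the 1 member of the whole pathway that was higher with separate groups. RRAGB, one of the paired GTPases that dock mTOR complex 1, measured 11.6, 12.3 and 13.9 TPM in control and 14.8, 15.2 and 14.9 TPM in mimic libraries (1.19 times the control mean, difference 0.24, SE 0.08, limma adjusted p = 0.305). Its far more abundant paralog RRAGA was at 167, 177 and 177 TPM in control and 178, 180 and 174 TPM in mimic libraries, with overlap. RRAGB was 6.46%, 6.50% and 7.28% of the pair in control and 7.66%, 7.80% and 7.86% in mimic libraries, a share also chosen after its values were seen. RRAGD was at 0.642, 0.798 and 0.729 TPM in control and 0.824, 0.510 and 0.757 TPM in mimic libraries, below the filter.

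The other 9 tested genes of that arm had unadjusted p-values above 0.05, while 10.7% of all tested genes had one under it. The GATOR1 subunits NPRL2, NPRL3 and DEPDC5, which switch the Rag GTPases off, differed by 0.06, 0.03 and 0.01, and RRAGC by -0.13 (SE 0.09). The 5 subunits of Ragulator, the scaffold that anchors the Rags, differed by -0.03 for LAMTOR1, -0.01 for LAMTOR2, -0.02 for LAMTOR3, 0.04 for LAMTOR4 and 0.05 for LAMTOR5. LAMTOR4 was the most variable of them, at 65.7, 47.8 and 72.9 TPM in mimic libraries against 55.0 to 62.2 TPM in control libraries, and its difference became 0.21 without mimic library 2. LAMTOR3 and LAMTOR5 have annotated pseudogenes that may share reads.

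In the mTOR complexes 0 of 6 tested genes had an unadjusted p under 0.05, beside 10.7% of all tested genes. MTOR, the kinase, was at 23.4, 26.1 and 27.0 TPM in control and 24.4, 23.6 and 25.1 TPM in mimic libraries (difference -0.06, SE 0.07, 95% interval -0.22 to 0.10). RPTOR, which defines mTOR complex 1, differed by -0.05 and RICTOR, which defines mTOR complex 2, by 0.05, and the ratio of RICTOR to RPTOR was 1.71 to 1.99 in control and 1.64 to 2.41 in mimic libraries. MLST8, shared by both complexes, differed by 0.01 and AKT1S1, which encodes the inhibitor PRAS40, by 0.02. MAPKAP1, which encodes the complex 2 subunit SIN1 and was the highest of the arm, was at 69.1, 77.0 and 71.4 TPM in control and 73.5, 74.1 and 72.7 TPM in mimic libraries. DEPTOR was at 0.827, 1.03 and 0.484 TPM in control and 0.982, 0.514 and 0.0504 TPM in mimic libraries, and the groups overlapped.

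Of the 7 translation and autophagy targets 0 had an unadjusted p under 0.05, beside 10.7% of all tested genes. EIF4EBP1 was at 386, 402 and 358 TPM in control and 361, 329 and 426 TPM in mimic libraries, and EIF4B at 483, 502 and 503 TPM in control and 515, 562 and 499 TPM in mimic libraries. In both genes the mimic libraries spread more widely than the controls, and their range took in all of the control range of EIF4EBP1 and part of that of EIF4B. EIF4B, EIF4E, EIF4EBP1 and EIF4EBP2 have annotated pseudogenes, as RHEB does, that may share reads. The cap-binding protein gene EIF4E differed by -0.03, its second repressor EIF4EBP2 by 0.01, and the S6 kinase genes RPS6KB1 and RPS6KB2 by -0.02 and -0.08. ULK1, the autophagy kinase that mTOR complex 1 inhibits, was the lowest of the arm, at 16.4, 16.9 and 16.3 TPM in control and 15.8, 16.5 and 17.5 TPM in mimic libraries.

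**Figure D4:**
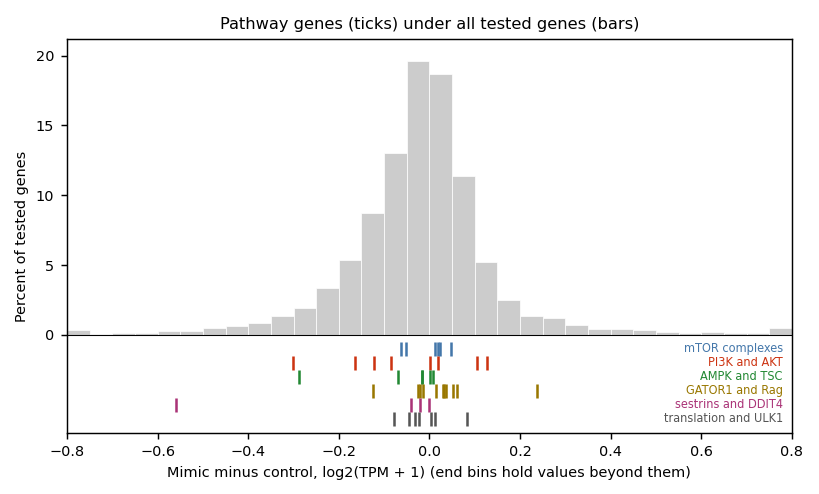
Distribution of the difference between mimic and control cells over 13680 tested genes (bars, percent of genes per bin of 0.05) with the 42 tested members as ticks by arm. Most ticks lie in the central bins of the bars, and SESN2, at -0.56, lies apart from the other members.

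A wider list of 74 pathway genes without the 45 members was read from the same fit, and all 74 passed the filter. Of these 74, 0 passed the adjusted threshold of 0.05 in either direction, beside 0.431% of all tested genes. As with the members, a gene that did not pass is not shown to be unchanged. The unadjusted p was below 0.05 for 4 genes of this list, all of them higher in mimic cells. That is 5.41% against 3.05% of all tested genes for the higher ones and 0 against 7.64% for the lower ones. The groups did not overlap for 13 of the 74, 7 higher and 6 lower, which is 17.6% against 15.7% of all tested genes, and the median difference was -0.0044. The 4 were FOXO1, FOXO3, STRADB and CASTOR1. FOXO1 and FOXO3 encode transcription factors that AKT phosphorylates and keeps out of the nucleus.

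FOXO1 came closest to passing. It measured 53.7, 54.7 and 59.5 TPM in control and 70.7, 73.9 and 70.1 TPM in mimic libraries, and the groups were apart. The difference of 0.35 (SE 0.06, 95% interval 0.22 to 0.48) had a limma adjusted p of 0.0525 and did not pass. FOXO1 passed in 7 of 18 alternatives, among them median-of-ratios scaling (adjusted p = 0.0264), quantile scaling (0.0369) and the correction for GC content and length (0.0065), and the adjusted p ranged from 0.0065 to 0.199. FOXO1 overlaps an annotated gene on each strand, so some of its reads may be shared.

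The other 3 were further from the threshold. FOXO3 was at 14.5, 15.1 and 14.5 TPM in control and 18.3, 18.9 and 15.7 TPM in mimic libraries (0.24, SE 0.08, limma adjusted p = 0.303). STRADB, a pseudokinase partner of LKB1, was at 15.9, 16.8 and 17.3 TPM in control and 18.0, 20.1 and 18.4 TPM in mimic libraries (0.16, SE 0.07, limma adjusted p = 0.437). CASTOR1, the arginine sensor upstream of GATOR, was at 4.39, 4.51 and 4.37 TPM in control and 5.86, 5.20 and 5.11 TPM in mimic libraries (0.23, SE 0.09, limma adjusted p = 0.397). None of these 3 overlapped between the groups. The most abundant genes of each group of this list overlapped between control and mimic libraries. Among the PI3K genes these were the receptor adaptor GRB10, with control and mimic means of 106 and 101 TPM, and PIK3C2A, a class II kinase, with 76.9 and 71.8 TPM. Among the mTOR cofactors they were FKBP8, with means of 189 and 194 TPM, and the mTOR stability factor TELO2, with 37.4 and 35.1 TPM. The LKB1 scaffold CAB39 had means of 86.3 and 85.4 TPM and the AMPK kinase CAMKK2 48.0 and 49.5 TPM. The GATOR2 subunits SEC13 and SEH1L had means of 132 and 134 TPM and of 18.8 and 19.8 TPM. The S6 kinase substrate RPS6 had means of 2221 and 2237 TPM and the helicase EIF4A1 823 and 809 TPM.

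Differences between mimic libraries moved with base composition, more than those between control libraries did in the pairs compared. In 12 of 42 members mimic library 2 was the highest and mimic library 3 the lowest of the 3 mimic libraries, and these had a median transcript GC content of 41.6%, with RICTOR, PIK3CA, SESN3 and EIF4E among them. In 15 members the order was the opposite, with a median of 59.8%, with AKT1, MLST8, LAMTOR4 and EIF4EBP1 among them. Across the 42 members the log2 difference of mimic library 2 minus 3 had a Spearman rho of -0.87 and a Pearson r of -0.84 with GC content, and across 12064 tested protein-coding genes -0.66 and -0.52. These are correlations across genes that share the same 2 libraries, so they carry no p. For mimic library 2 minus 1 and 3 minus 1 the rho was -0.66 and 0.76 over the members and -0.48 and 0.48 over the protein-coding genes. Between control libraries the rho over the members was 0.13 for library 2 minus 1 and -0.44 for library 3 minus 1, and over the protein-coding genes 0.12 and -0.24. Control library 2 minus 3 was not computed. The difference of the group means had a rho of -0.21 with GC content over the members and -0.0067 over the protein-coding genes.

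**Figure D5:**
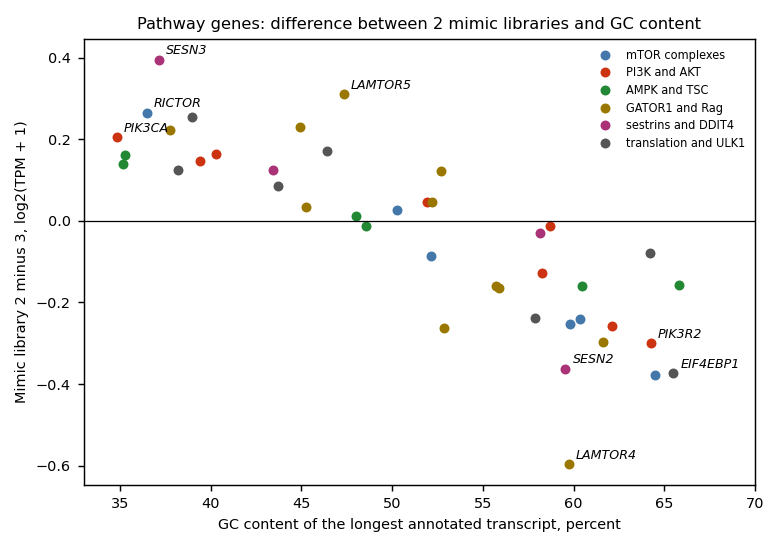
Difference between mimic libraries 2 and 3 (vertical axis, log2(TPM + 1)) against the GC content of the longest annotated transcript (horizontal axis, percent) for the 42 tested members, coloured by arm. Members of low GC content such as SESN3 lie above 0 and members of high GC content such as LAMTOR4 lie below it, with a Spearman rho of -0.87 across genes.

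SESN2, at 59.5% GC, and PIK3R2, at 64.2%, are among the GC-rich members, and the part of this tilt in their values was measured by a fit on values corrected for GC content and length within each library. There SESN2 differed by -0.52 and passed (limma adjusted p = 0.0233), PIK3R2 differed by -0.26 (0.0553), TSC1 by -0.27 (0.117), RRAGB by 0.25 (0.0968) and PDPK1 by -0.14 (0.188). With the replicate number added as a block to that fit, the difference of SESN2 was the same but did not pass (limma adjusted p = 0.0884). At an unadjusted p under 0.05 there were 8 of 42 members in the corrected fit, 19.0% beside 18.3% of all tested genes, and again 8 with the block, beside 15.4%. In the corrected fit 287 genes passed in all, against 59 on the deposited values.

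Of the 5 members whose groups did not overlap, SESN2, PIK3R2, PDPK1 and RRAGB held none of the seed matches in the longest annotated 3′ UTR (1689, 1246, 5421 and 431 nt), and TSC1 held a 6mer. Among the 11855 tested protein-coding genes searched, 54.6% held none and 22.5% held a 6mer as the strongest class. In GRCh38, SESN2 (ENSG00000130766) spans 28259527 to 28282491 of chromosome 1 and overlaps no other annotated gene. PIK3R2 (ENSG00000105647) lies on chromosome 19 at 18153118 to 18170540, TSC1 (ENSG00000165699) on chromosome 9 at 132891348 to 132946874, PDPK1 (ENSG00000140992) on chromosome 16 at 2537964 to 2603188 and RRAGB (ENSG00000083750) on chromosome X at 55717739 to 55758774.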

How the data were processed

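The 6 deposited tables hold 1 TPM value per Ensembl gene ID, computed by the authors from single-end reads, per the file headers and the labels' protocols. The submitters' processing notes name hg38 and GRCh38.p13. Aligner, counter, annotation and strand setting: not given in the sources used here. Symbols were found for 45102 of 45372 IDs. limma 3.58.1 (R 4.3.3) was fitted to log2(TPM + 1), a scale that understates changes of low genes, with a trended prior and group as the only term, over 13680 genes, and was tested on simulated data. Positions, UTRs (30 nt or longer), lengths and GC content came from GENCODE release 29. For 77.2% of 8984 low genes TPM times exon length was within 0.02 of whole reads, which gave the depth; the estimated reads can include PCR copies.

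Members and lists were chosen with earlier results of these data known. Values by library are given for members with an unadjusted p under 0.05 or separate groups, the highest and lowest of each arm and 11 set genes (MTOR, AKT1, AKT2, PIK3CA, IRS1, IRS2, SESN2, DDIT4, TSC2, PRKAA1 and EIF4EBP1). RICTOR, PIK3R1, LAMTOR4 and the ratios were added after their values were seen. In the wider list, genes with an unadjusted p under 0.05 and the 2 highest of each group are named. Alternatives were pseudocounts, filters, scalings, priors, a replicate block and each library left out.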

Additional observations from a re-analysis of the deposited data

How the results depend on the processing

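The correction for GC content and length and the restriction to protein-coding genes were chosen after the data were seen. Genes called numbered 59, and 11 with no filter, 115 with a filter of 5 TPM, 20 with an untrended prior, 119 with a robust prior, 14 with the replicate block, 176 with protein-coding genes only, 287 with the GC and length correction and 35 with that correction and the replicate block. Without 1 library they numbered 14 to 46, with 16, 14 and 18 without control library 1, 2 and 3 and 17 without mimic library 1. Of the members, 0 were called, and 1, SESN2, with a filter of 5 TPM, a robust prior, protein-coding genes only or the GC and length correction. Without 1 library 0 to 1 were called, the 1 being SESN2 without mimic library 3. Members at an unadjusted p under 0.05 numbered 5, and 8 with the GC and length correction with or without the replicate block (19.0%, beside 18.3% of all tested genes without and 15.4% with it). Without 1 library they numbered 3 to 6. There were 3 without control library 3 (7.14%, beside 7.46% of all tested genes), where TSC1 and PDPK1 no longer had such a p. There were 6 without mimic library 2 (14.3%, beside 12.0% of all tested genes). The members' median stayed between -0.031 and 0.016 without 1 library. Replicate numbers did not pair the libraries (same-numbered libraries correlated at 0.031, -0.087 and -0.112 in their deviations from the group means, and not every library correlated best with its own number), and the replicate block ended the call of SESN2 under the GC and length correction (adjusted p from 0.0233 to 0.0884, limma) and changed no other call of a member. Over 18 alternatives SESN2, PIK3R2, PDPK1, TSC1, RRAGB and FOXO1 each kept their direction in all 18. IRS1, DEPTOR and RRAGD were below the filter and have no test, and TPM cannot show a change in total RNA per cell.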
